A study of Mus musculus with 11 samples.

Results

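The 47 genes described here encode the machinery of mitosis, from cyclin B and its kinase to the kinetochore, the spindle and the cytokinesis proteins. They were chosen by name for their role in the cell cycle, with earlier results of these data known. All 47 were found, each once, among the 17475 genes of the deposited table of log2 expression. They were followed across 4 groups of macrophages sorted from mammary tumours of 6 female mice backcrossed to B6.

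Every mouse carried the PyMT oncogene, which gives rise to mammary carcinomas. Every mouse was also lethally irradiated at 7 weeks of age, transplanted with bone marrow of wild-type (WT) B6 donors, put on a low protein diet 2 weeks later and killed after 6 weeks of it, so neither the diet nor the transplant varied between groups. The control-PyMT mice (numbers 1, 3 and 5) carried no other allele named in the labels. The MYC-PyMT mice (numbers 2, 4 and 6) had the genotype S100a8-creRosa26-LSL-MYCPyMT, in which Cre under the S100a8 promoter, active mainly in neutrophils and other myeloid cells, switches on a MYC transgene. Since both genotypes received WT marrow, donor-derived macrophages carried no MYC transgene, and the labels do not say how many host macrophages remained. Both cell types were sorted as F4/80-positive cells, tumour-associated macrophages (TAMs) by the presence of Vcam and mammary tissue macrophages (MTMs) by FOLR2 in the absence of Vcam. There were 3 control TAM, 3 control MTM, 3 MYC TAM and 2 MYC MTM libraries, and mouse 6 gave TAMs only.

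In dividing cells, Cdk1 bound to cyclins A and B starts mitosis, Plk1 and the Aurora kinases build the spindle and ready the kinetochores, and the spindle assembly checkpoint holds back the anaphase-promoting complex until every chromosome is attached. Kinesins and microtubule-binding proteins shape the spindle, and the central spindle then places the cleavage furrow. Most of these genes are transcribed late in the cell cycle, under the DREAM, MYB and FOXM1 regulators, so in a tissue their mRNA is usually read as a sign of cycling cells, and tissue macrophages are known to renew partly by dividing in place.

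The mitotic genes were low in the MYC TAM libraries. Averaged over the 47 genes, the log2 level was 1.67, 1.78 and 1.63 in the TAMs of MYC mice 2, 4 and 6, against 3.27 and 3.41 in the MTMs of mice 2 and 4. In control mice 1, 3 and 5 it was 2.83, 3.56 and 3.26 in TAMs and 3.46, 4.00 and 3.47 in MTMs, and values are listed in this order of mice throughout. The 3 MYC TAM libraries lay below all 8 others, control TAMs overlapped both MTM groups, and MYC MTMs lay just below control MTMs. In MYC mice, 35 of the 47 genes were lower in TAMs than in MTMs and 0 were higher at an adjusted p below 0.05 in limma, where 3.82% of all genes were lower and 4.49% passed in either direction. Between the genotypes, 38 of 47 were lower in MYC TAMs than in control TAMs and 0 were higher, where 12.0% of all genes were lower and 3.89% higher. The median log2 difference was -1.67 and -1.54 in these 2 comparisons, against -0.01 and -0.02 over all genes. Both comparisons share the 3 MYC TAM libraries, so they are not independent of each other. With the mean of epithelial markers as a covariate, 24 and 3 of the 47 passed in these comparisons, in that order, as described below. In bulk RNA, fewer cycling cells and less of these mRNAs per cycling cell cannot be told apart.

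**Figure D1:**
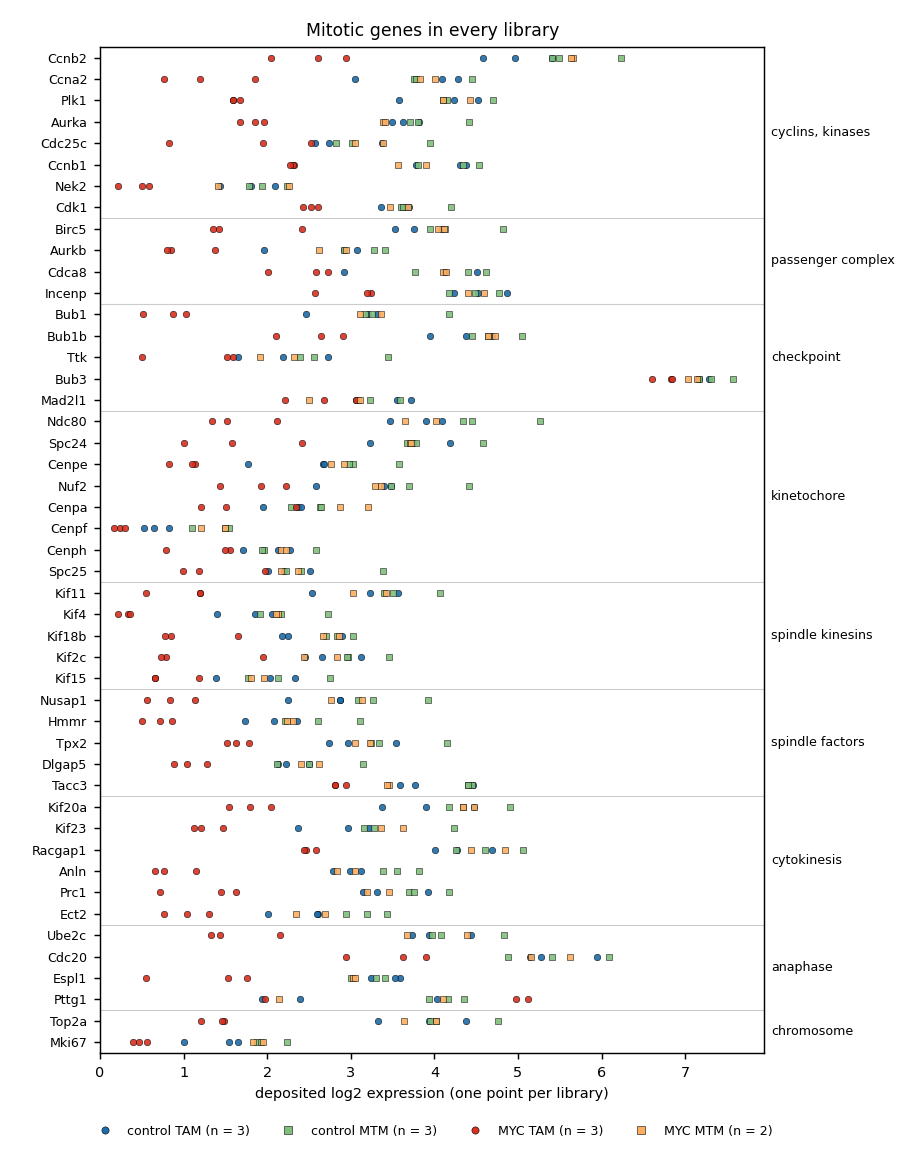
Deposited log2 expression (x axis) of each of the 47 mitotic genes (rows, grouped by role), with 1 point for each of the 11 libraries, circles for TAMs and squares for MTMs. The 3 red MYC TAM points lie to the left of most others in nearly every row, while Pttg1, with MYC TAM values of 5.12, 4.97 and 1.97, does not follow.

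The libraries were of similar depth, about 32.9 to 43.6 M reads in genes, estimated from the steps between low values, and each mitotic gene had at least an estimated 22 reads in every library. MYC TAM mouse 4 stood apart in having 581 genes without a read, against 2072 to 3522 in the others. The macrophage genes Csf1r and Emr1 (F4/80) were high everywhere but lower in MYC TAMs, with Csf1r at 7.59, 8.03 and 8.09 there and 9.91 to 10.74 in the other 8 libraries, and Emr1 at 7.50, 7.57 and 8.37 against 9.40 to 9.96. Of 13 macrophage markers, 6 were lower and 2 higher in MYC than control TAMs, where 12.0% of all genes were lower and 3.89% higher. Against MYC MTMs 4 were lower and 1 higher, where 3.82% of all genes were lower and 0.664% higher. Their mean log2 level was 7.70 to 8.04 in MYC TAMs and 7.89 to 8.65 in control TAMs. Their summed linear level was 18669 to 29980 in MYC TAMs, wholly above the 13202 to 17193 of control TAMs. It was 26310 to 26849 in MYC MTMs and 26225 to 30171 in control MTMs. The part of these differences in the results below was not tested. Mouse Myc read 2.16, 1.92 and 1.78 in MYC TAMs, 2.87 and 3.02 in MYC MTMs and 2.53 to 3.18 in control libraries, and whether reads of the transgene count towards it is not given in the sources used here. Folr2 separated the MTMs (7.67 to 8.45) from the TAMs (0.96 to 3.62) in both genotypes. Vcam1, whose protein gates TAMs, was at 7.64 to 8.60 in control TAMs but at 0.96, 1.61 and 2.82 in the libraries labelled MYC TAM, near the 2.32 and 2.31 of MYC MTMs and below the 5.25 to 6.86 of control MTMs. The RNA of this gate gene thus went against the label in MYC TAMs, and every difference that involves them is one of libraries so labelled.

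Within each mouse that gave both cell types the picture was the same in MYC mice and less even in controls. In MYC mouse 2, 46 of 47 genes were lower in TAMs than in MTMs, and in MYC mouse 4, 45 were, with median log2 differences of -1.70 and -1.65. In 45 genes TAMs were lower in both mice, against 34.4% of all genes, and the exceptions were Pttg1 and Mad2l1. All MYC TAM libraries lay below all MYC MTM libraries in 45 genes too, against 23.5%, and wholly above in 0, against 6.82%. Below all control TAM libraries they lay in 44 genes, against 22.1%, and above in 0, against 8.03%. In control mice 1, 3 and 5, 45, 41 and 36 of the 47 were lower in TAMs, with smaller medians of -0.62, -0.42 and -0.19. In 30 of 47 the control TAMs were lower in all 3 mice, against 19.9% of all genes.

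The promoters of these genes are shown because most of the genes were low together, and because mitotic promoters are known for 2 short elements, the cell cycle homology region (CHR), which the DREAM and MYB complexes contact, and the CCAAT box, which NF-Y binds. RefSeq promoters (GRCm38.p6) were found for 39 of the 47 genes. The 250 bases before each start were searched on both strands for TTTGAA or TTCGAA (CHR, the former also as TTCAAA) and for CCAAT (also as ATTGG), and matches that share a base were both counted. A CHR match was found in 14 of the 39 genes (35.9%), against 15.6% of 12165 measured genes with an entry. A CCAAT match was found in 28 of 39 (71.8%), against 39.8%, and both in 12 (30.8%), against 7.22%. Of 43 other spindle and kinetochore genes with an entry, 41.9% held CHR, 62.8% CCAAT and 30.2% both, and of 35 S phase genes 20% held CHR, 62.9% CCAAT and 17.1% both. By single promoters, 38.1% of the genes' 42 promoters held a CHR match against 17.1% of all 32851, and 73.8% held CCAAT against 33.8%. These are matches of letters and not shown to be bound in these cells. The stretches below are in lower case with matches in capitals. They come from up to 180 bases before the RefSeq start, with exon bases left out. Printed are the largest differences from MYC MTMs among the genes described in full whose promoter entry held a match. A match was thus required for printing. Birc5 differed more than Kif11, but its promoter held neither match and is not shown.

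Ccnb2, chr9:70421555-70421734, minus strand: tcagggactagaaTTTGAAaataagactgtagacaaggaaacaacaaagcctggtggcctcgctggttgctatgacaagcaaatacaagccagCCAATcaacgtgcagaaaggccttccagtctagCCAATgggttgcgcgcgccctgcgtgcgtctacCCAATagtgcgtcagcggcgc
Top2a, chr11:99024190-99024369, minus strand: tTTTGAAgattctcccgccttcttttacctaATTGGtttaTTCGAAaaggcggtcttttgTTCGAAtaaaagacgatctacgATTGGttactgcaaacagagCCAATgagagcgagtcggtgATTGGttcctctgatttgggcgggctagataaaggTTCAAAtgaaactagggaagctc
Bub1, chr2:127831866-127832039, minus strand: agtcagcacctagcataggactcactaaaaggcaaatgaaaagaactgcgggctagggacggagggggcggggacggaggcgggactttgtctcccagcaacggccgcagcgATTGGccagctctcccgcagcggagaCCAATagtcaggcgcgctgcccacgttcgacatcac
Ube2c, chr2:164769749-164769897, plus strand: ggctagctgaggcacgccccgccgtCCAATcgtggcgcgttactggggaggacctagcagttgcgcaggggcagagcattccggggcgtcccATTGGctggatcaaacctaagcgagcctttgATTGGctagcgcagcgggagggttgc
Kif11, chr19:37376202-37376381, plus strand: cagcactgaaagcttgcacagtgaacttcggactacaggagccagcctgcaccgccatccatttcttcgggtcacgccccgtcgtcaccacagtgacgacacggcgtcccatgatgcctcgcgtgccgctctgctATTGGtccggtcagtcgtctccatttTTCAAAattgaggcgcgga

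Ccnb2 shows 1 CHR and 3 CCAAT matches in its stretch and Top2a 4 of each, Kif11 shows 1 of each, Bub1 shows 2 CCAAT and no CHR, and Ube2c shows 3 CCAAT. In the 250 bases searched Ube2c has 6 CCAAT matches and 1 CHR match, TTCAAA at 29 bases before the start, which lies in the 31 bases left out of its stretch. Plk1 would have been printed by the same rule, but 147 of its 180 bases lie in an exon of another annotated gene.

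The cyclins and mitotic kinases were among the genes with the largest differences, and 7 of the 8 were lower in MYC TAMs in both comparisons. Ccnb2 (cyclin B2, chr9:70407692-70421547 in GRCm38) read 2.94, 2.04 and 2.60 in MYC TAMs, against 5.66 and 5.63 in MYC MTMs. It read 4.58, 5.41 and 4.96 in control TAMs and 5.49, 6.23 and 5.41 in control MTMs. The MYC TAMs lay below every other library by more than 1 log2 unit. The difference from MYC MTMs was -3.12 ± 0.34 (SE, limma adjusted p = 0.00131), 8.68-fold on the log2(value + 1) scale, and from control TAMs it was -2.46 ± 0.30 (adjusted p = 0.000700). Such folds understate the change of genes with low values.

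Plk1, the kinase that matures centrosomes and triggers mitotic entry (chr7:122159439-122169873), read 1.67, 1.59 and 1.60 in MYC TAMs against 4.10 and 4.43 in MYC MTMs. In control mice it read 3.6, 4.53 and 4.23 in TAMs and 4.15, 4.70 and 4.10 in MTMs, so those cell types overlapped. The 3 MYC TAM libraries lay close together and below all others. They differed from MYC MTMs by -2.65 ± 0.28 and from control TAMs by -2.49 ± 0.25 (limma adjusted p = 0.00122 and 0.000245). Ccna2, cyclin A2, which acts from S phase to early mitosis, read 1.85, 0.76 and 1.19 in MYC TAMs, against 3.83 and 4.01 in MYC MTMs. Control TAMs read 3.04, 4.28 and 4.09 and control MTMs 3.76, 4.45 and 3.78. Its differences were -2.65 ± 0.42 and -2.54 ± 0.37.

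Ccnb1 (cyclin B1), Aurka, the Aurora kinase of the spindle poles, and Nek2, a kinase that splits the centrosomes, fell in both comparisons, with differences of -1.34 to -1.86. So did Cdk1, the catalytic partner of cyclins A and B, which moved least, with -1.05 in each. The values of Cdk1 were 2.43, 2.53 and 2.61 in MYC TAMs and 3.36 to 4.20 in the other libraries, without overlap. Cdc25c, the phosphatase that activates Cdk1, did not pass either test: MYC TAMs read 1.95, 2.52 and 0.82, and the differences were -1.46 ± 0.50 and -1.13 ± 0.45 (limma adjusted p = 0.161 and 0.129).

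Of the 4 subunits of the chromosomal passenger complex, which corrects faulty attachments and later drives cytokinesis, 3 were lower in MYC TAMs than MYC MTMs and all 4 lower than in control TAMs. Birc5 (survivin), its targeting subunit, read 2.42, 1.36 and 1.42 in MYC TAMs, against 4.12 and 4.04 in MYC MTMs. The control values were 3.53, 4.09 and 3.76 for TAMs and 4.13, 4.83 and 3.95 for MTMs. No MYC TAM library reached any of the others, and the differences were -2.35 ± 0.36 and -2.06 ± 0.32 (limma adjusted p = 0.00668 and 0.00255). Aurkb, the kinase, and Incenp, the scaffold, fell by 1.77 and 1.50 from MYC MTMs and by 1.65 and 1.54 from control TAMs. Cdca8 (borealin) was at -1.68 ± 0.44 from MYC MTMs, which missed the threshold (limma adjusted p = 0.0699).

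The spindle assembly checkpoint split in its values. Bub1, the kinase that recruits checkpoint proteins to kinetochores, read 0.52, 0.87 and 1.03 in MYC TAMs, against 3.11 and 3.37 in MYC MTMs. It stood at 2.47, 3.20 and 3.31 in TAMs and at 3.26, 4.18 and 3.17 in MTMs of control mice. Its differences were -2.43 ± 0.36 and -2.19 ± 0.32 (limma adjusted p = 0.00587 and 0.00177). Bub1b (BubR1), part of the mitotic checkpoint complex, fell by 2.13 and 1.79, with MYC TAMs at 2.11, 2.90 and 2.64 and all other libraries at 3.95 to 5.04. Those 2 of the 5 checkpoint genes passed in each comparison.

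Bub3, Mad2l1 and Ttk did not pass in any comparison. Bub3, which binds Bub1 and BubR1 and was the most highly expressed of the 47, read 6.84, 6.85 and 6.61 in MYC TAMs, against 7.14 and 7.03 in MYC MTMs. In control mice it read 7.17, 7.29 and 7.15 in TAMs and 7.17, 7.58 and 7.31 in MTMs. MYC TAMs lay below all other libraries, but the differences were only -0.32 ± 0.16 and -0.44 ± 0.14 (limma adjusted p = 0.349 and 0.0650). Mad2l1, the inhibitor that the checkpoint loads onto Cdc20, read 2.68, 3.07 and 2.22 in MYC TAMs, against 3.11 and 2.50 in MYC MTMs, which overlapped, with differences of -0.15 ± 0.31 and -0.79 ± 0.28. Ttk (Mps1), the kinase at the head of the checkpoint, stood at -0.91 ± 0.45 and -0.99 ± 0.40. Whether these genes differed from Bub1 and Bub1b in their response was not tested.

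At the centromere and kinetochore, 5 of 8 genes fell from MYC MTMs and 4 of 8 from control TAMs. Ndc80, whose complex grips microtubule ends, read 1.34, 1.52 and 2.12 in MYC TAMs, against 3.65 and 4.02 in MYC MTMs. Control TAMs read 3.47, 4.10 and 3.90 and control MTMs 4.34, 5.26 and 4.45. It differed by -2.18 ± 0.34 and -2.16 ± 0.30 (limma adjusted p = 0.00692 and 0.00139). The 3 partners of Ndc80 in that complex were uneven: Spc24 fell in both comparisons (-2.04 and -2.05), Nuf2 passed only against control TAMs (-1.47, limma adjusted p = 0.0534, and -1.30, adjusted p = 0.0234), and Spc25 passed in neither (-0.88 and -0.86).

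Cenpe, a kinesin of the kinetochore, fell in both comparisons (-1.82 and -1.35). Cenpa, the histone variant that marks centromeres, read 2.34, 1.51 and 1.21 in MYC TAMs, against 3.21 and 2.87 in MYC MTMs. It was just past the threshold between them (-1.35 ± 0.33, limma adjusted p = 0.0498) and did not differ detectably from control TAMs, with which it overlapped (1.95, 2.36 and 2.41, difference -0.55 ± 0.29, adjusted p = 0.262). Cenpf, the least expressed of the 47 in each group mean, read 0.24, 0.30 and 0.16 in MYC TAMs, against 1.21 and 1.49 in MYC MTMs. The control values were 0.52, 0.82 and 0.64 for TAMs and 1.54, 1.49 and 1.10 for MTMs, so TAMs lay below MTMs without overlap in both genotypes. It passed in MYC mice (-1.11 ± 0.18, limma adjusted p = 0.00789) and not in controls (-0.72 ± 0.16, adjusted p = 0.0514). Cenph, of the inner kinetochore, did not pass (-0.91 and -0.76).

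The spindle kinesins fell in 3 of 5 genes from MYC MTMs and in 5 of 5 from control TAMs. Kif11 (Eg5), which pushes the spindle poles apart, read 0.55, 1.20 and 1.20 in MYC TAMs, against 3.02 and 3.42 in MYC MTMs. It stood at 2.54, 3.56 and 3.23 in TAMs and at 3.40, 4.07 and 3.51 in MTMs of control mice. Its differences were -2.24 ± 0.35 and -2.13 ± 0.31 (limma adjusted p = 0.00710 and 0.00182). Kif4, a chromokinesin, read 0.33, 0.35 and 0.22 in MYC TAMs against 1.40 to 2.73 elsewhere and fell by 1.82 ± 0.28 and 1.47 ± 0.25. Kif18b, a kinesin of astral microtubules, fell in both. Kif2c (MCAK), which takes microtubules apart at kinetochores, and Kif15, which backs up Kif11, passed only against control TAMs (-1.59 and -1.08), with -1.49 and -1.05 from MYC MTMs (limma adjusted p = 0.0650 and 0.156).

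Among spindle assembly factors, 4 of 5 fell from MYC MTMs and 5 of 5 from control TAMs. Nusap1, which bundles microtubules near chromosomes, read 0.56, 1.13 and 0.83 in MYC TAMs, against 2.77 and 3.13 in MYC MTMs. In control mice it read 2.25, 2.87 and 2.87 in TAMs and 3.09, 3.93 and 3.26 in MTMs. Its differences were -2.11 ± 0.31 and -1.82 ± 0.28 (limma adjusted p = 0.00609 and 0.00241). Tpx2, the activator of Aurora A, with Hmmr, which focuses spindle poles, and Dlgap5 (HURP), which steadies kinetochore fibres, fell by 1.44 to 1.58 from MYC MTMs and by 1.22 to 1.44 from control TAMs.

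Tacc3, which stabilises spindle fibres, was different in its values: MYC TAMs read 2.81, 2.94 and 2.81 and MYC MTMs 3.46 and 3.43, both below control TAMs (3.59, 4.46 and 3.77) and control MTMs (4.40, 4.45 and 4.41). The fall in TAMs between genotypes passed (-1.09 ± 0.21, limma adjusted p = 0.00697). The differences between MYC TAMs and MYC MTMs (-0.59 ± 0.23, limma adjusted p = 0.223) and between MYC and control MTMs (-0.98 ± 0.23, adjusted p = 0.121) did not.

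All 6 genes of the central spindle and cytokinesis fell in both comparisons. Kif20a (MKLP2), which carries the passenger complex to the central spindle, read 1.54, 1.80 and 2.05 in MYC TAMs, against 4.34 and 4.47 in MYC MTMs. Control TAMs read 3.37, 4.47 and 3.90 and control MTMs 4.18, 4.90 and 4.34. It fell by 2.61 ± 0.32 and 2.12 ± 0.29 (limma adjusted p = 0.00244 and 0.00128). Anln (anillin), which links the actin ring to the membrane, read 0.77, 1.15 and 0.66 in MYC TAMs, against 2.84 and 3.05 in MYC MTMs. In control mice Anln read 2.79, 3.13 and 2.98 in TAMs and 3.56, 3.82 and 3.39 in MTMs, without overlap. It had the smallest adjusted p of the 47 between MYC TAMs and MTMs (-2.09 ± 0.22, limma adjusted p = 0.00110) and also in TAMs between genotypes (-2.11 ± 0.19, adjusted p = 0.000142).

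Prc1, which cross-links the central spindle, read 0.72, 1.45 and 1.63 in MYC TAMs, against 3.20 and 3.45 in MYC MTMs. The control values were 3.15, 3.93 and 3.31 for TAMs and 3.69, 3.75 and 4.18 for MTMs. It fell by 2.06 ± 0.32 and 2.20 ± 0.29. Kif23 and Racgap1, which together form centralspindlin, fell by 2.23 and 2.15 from MYC MTMs and by 1.58 and 1.82 from control TAMs. Ect2, which acts at the cleavage furrow, fell by 1.48 and 1.37.

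Of the 4 genes of anaphase and chromatid separation, 3 fell in both comparisons. Ube2c, the ubiquitin-conjugating enzyme of the anaphase-promoting complex, read 2.15, 1.33 and 1.43 in MYC TAMs, against 3.67 and 4.39 in MYC MTMs. It stood at 3.73, 4.44 and 3.94 in TAMs and at 4.08, 4.84 and 3.97 in MTMs of control mice. It fell by 2.39 ± 0.37 and 2.40 ± 0.33 (limma adjusted p = 0.00678 and 0.00128). Cdc20, the activator of that complex, and Espl1 (separase) fell by 1.90 and 1.76 from MYC MTMs and by 1.97 and 2.17 from control TAMs.

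Pttg1 (securin), the inhibitor of separase, stood apart from the rest. It read 5.12, 4.97 and 1.97 in MYC TAMs, against 2.14 and 4.11 in MYC MTMs. In control mice it read 1.94, 4.03 and 2.39 in TAMs and 3.94, 4.16 and 4.35 in MTMs. The libraries lay far apart within every group but control MTMs, all groups overlapped, and no difference passed (0.90 ± 0.98 and 1.23 ± 0.87, limma adjusted p = 0.670 and 0.398).

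Top2a, which untangles chromosomes, and Mki67, whose protein Ki-67 coats them and is a common marker of cycling cells, both fell in both comparisons. Top2a read 1.21, 1.48 and 1.46 in MYC TAMs, against 3.64 and 4.02 in MYC MTMs. Control TAMs read 3.32, 4.38 and 3.94 and control MTMs 3.94, 4.76 and 4.02. MYC TAMs lay below all others, and Top2a fell by 2.45 ± 0.33 and 2.50 ± 0.30 (limma adjusted p = 0.00410 and 0.000586). Mki67 read 0.39, 0.57 and 0.47 in MYC TAMs against 1.82 and 1.95 in MYC MTMs, and fell by 1.41 ± 0.23 (limma adjusted p = 0.00916). Control TAMs, at 1.00, 1.65 and 1.54, lay between these levels, and the difference from them was -0.92 ± 0.21 (limma adjusted p = 0.0145).

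**Figure D2:**
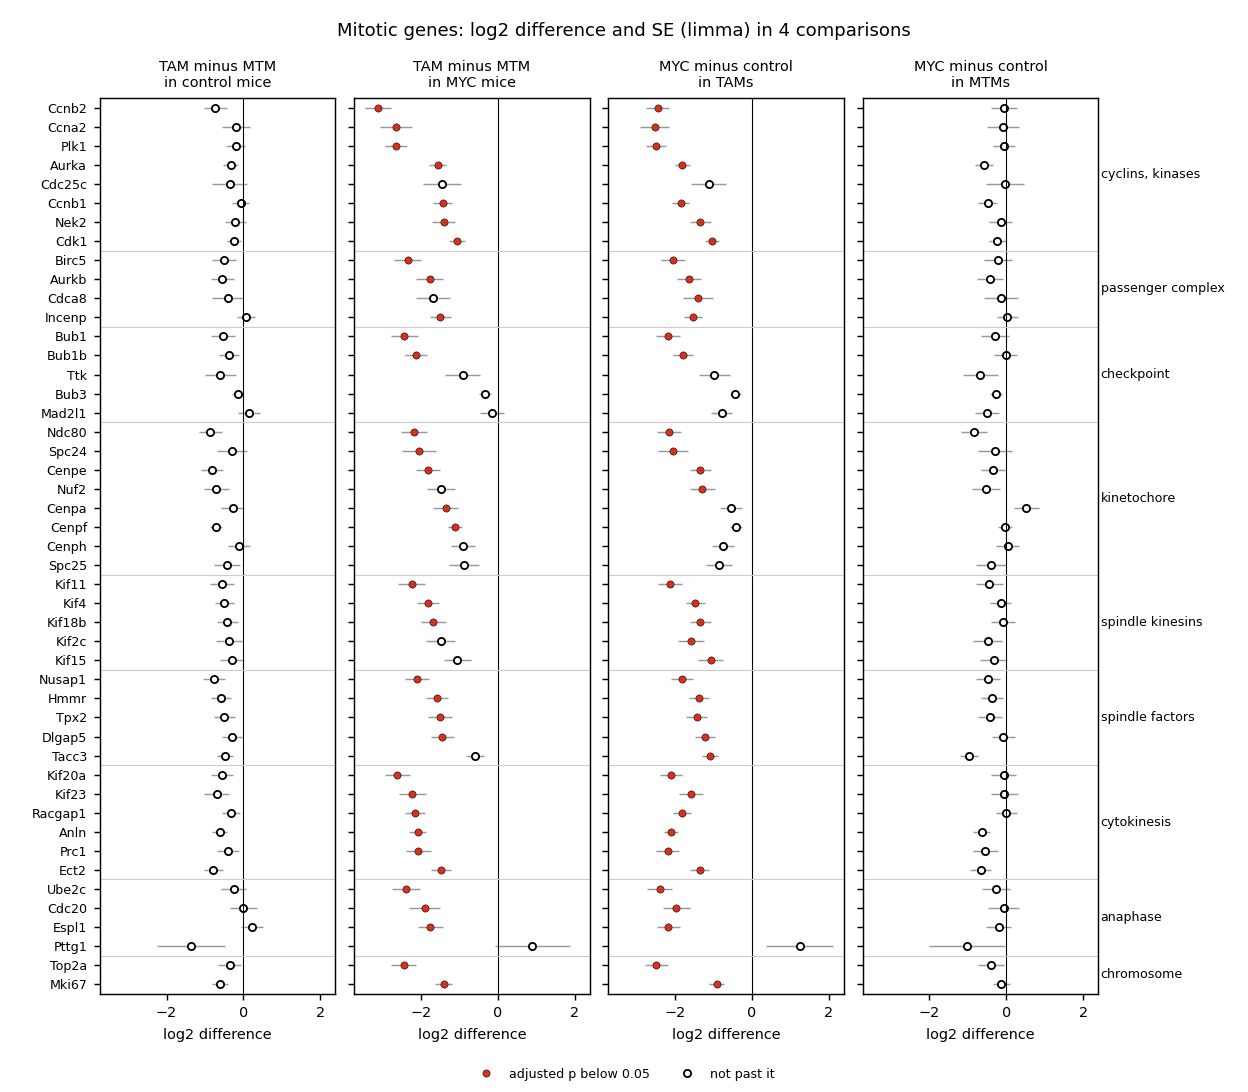
Log2 difference (x axis, points) with its SE (bars) for the 47 mitotic genes in 4 comparisons, from limma on the deposited values; filled points passed an adjusted p of 0.05. In control mice and between MTMs no point is filled, while 35 are in MYC mice and 38 between TAMs, all of them at negative differences.

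In control mice none of the 47 passed between TAMs and MTMs in limma, although 44 had a negative difference, with a median of -0.41. Here 2.37% of all genes passed, 1.63% lower and 0.744% higher in TAMs. At an unadjusted p below 0.05, 10 of 47 were lower in control TAMs (Anln, Ccnb2, Cenpe, Cenpf, Ect2, Hmmr, Mki67, Ndc80, Nusap1 and Tacc3), against 7.43% of all genes. In 8 of 47 the control TAM and MTM libraries did not overlap, TAMs being lower, against 12.0% of all genes, and in 0 they lay wholly above, against 6.90%. The smallest differences were those of Cdc20 (5.15, 5.95 and 5.27 against 4.89, 6.08 and 5.41, difference -0.00 ± 0.36), Incenp (0.06 ± 0.24) and Ccnb1 (-0.07 ± 0.22). Cenpf was nearest to the threshold (limma adjusted p = 0.0514), and 1 gene passed when control TAM mouse 3 (Tacc3) or control MTM mouse 5 (Cenpf) was left out.

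Between MYC and control MTMs none of the 47 passed in limma either, with a median difference of -0.26, and 0.618% of all genes passed (0.280% lower). At an unadjusted p below 0.05, 5 were lower in MYC MTMs (Anln, Aurka, Ect2, Ndc80 and Tacc3), against 6.55% of all genes. In 12 of 47 the MYC MTMs lay wholly below the control MTMs, against 20.1% of all genes, and in 1 (Cenpa) wholly above, against 11.1%. The 3 smallest differences were those of Racgap1 (0.00 ± 0.27), Incenp (0.02 ± 0.27) and Bub1b (-0.02 ± 0.29). Without control TAM mouse 3, 1 gene passed (Tacc3).

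The question whether the TAM to MTM difference itself differed between genotypes was tested as a difference of differences. It passed for 4 of the 47 genes, all lower, where 0.996% of all genes passed lower and 1.24% in either direction. Plk1 had -2.44 ± 0.38 (limma adjusted p = 0.0193), Ccnb2 -2.39 ± 0.45 (adjusted p = 0.0414), Racgap1 -1.82 ± 0.36 (adjusted p = 0.0456) and Anln -1.46 ± 0.29 (adjusted p = 0.0489). Racgap1 read 2.47, 2.44 and 2.58 in MYC TAMs, against 4.44 and 4.84 in MYC MTMs. The control values were 4.01, 4.69 and 4.27 for TAMs and 4.61, 5.06 and 4.26 for MTMs. The median over the 47 was -1.25, and 46 of them had a negative value. At an unadjusted p below 0.05, 33 of the 47 were lower, against 1398 of all 17475 genes. With the mouse as a fixed block 0 of the 47 passed and with a random block 8, and none of the 4 calls held through the removal of each library in turn, with 0 calls without MYC MTM mouse 2 or 4, control MTM mouse 1 or 5 or control TAM mouse 5, 1 without MYC TAM mouse 4 or 6 or control TAM mouse 3, 4 without MYC TAM mouse 2 or control TAM mouse 1 and 8 without control MTM mouse 3.

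**Figure D3:**
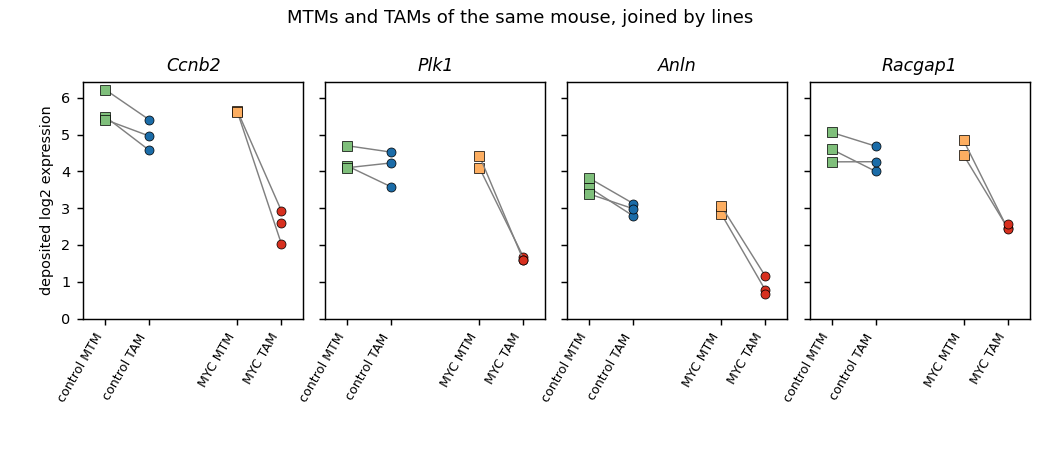
Deposited log2 expression (y axis) of the 4 genes whose TAM to MTM difference passed between genotypes, in MTMs (squares) and TAMs (circles) of control and MYC mice; lines join libraries of the same mouse. The lines of MYC mice are steep and those of control mice flatter, as in Racgap1, where MYC MTMs read 4.44 and 4.84 and MYC TAMs 2.44 to 2.58, while control MTMs (4.26 to 5.06) and control TAMs (4.01 to 4.69) overlap.

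The counts depended on single libraries as follows. Between MYC TAMs and MYC MTMs the count fell from 35 to 10 without MYC MTM mouse 2 and to 7 without MYC MTM mouse 4, each of which leaves 1 library in that group, and was 29 to 36 without any other single library. The genes called whichever library was left out were Ccnb2, Plk1, Bub1b, Kif20a, Anln and Racgap1. Between MYC and control TAMs, 32 of the 38 genes were called whichever library was left out, and the count was 32 to 39. Without MYC TAM mouse 4, which stood apart in its genes without a read, the counts were 29 and 35. Without MYC TAM mice 4 and 6 together, the libraries with the lowest epithelial means, they were 18 and 21, with median differences of -1.72 and -1.63. Centring each library on its median called 34 and 38 mitotic genes lower and 0 higher, while of all genes between TAMs it called 3516 higher and 1513 lower in place of 680 and 2098.

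Levels of other cells' genes moved along with these results. Epithelial markers (28 of 30 measured) had mean log2 levels of 2.52, 1.76 and 1.03 in MYC TAMs, against 2.57 and 2.64 in MYC MTMs. Their means were 3.29, 3.98 and 3.34 in the TAMs of control mice and 2.85, 3.51 and 3.13 in the MTMs. Their summed linear level was 934 to 2099 in control TAMs, 564 to 1425 in control MTMs, 50.8 to 480 in MYC TAMs and 422 to 496 in MYC MTMs, and of the defining genes none of Epcam, Krt8, Krt18 or Cdh1 was without a read in any library. Of the 28, 16 were lower in MYC than control TAMs, where 12.0% of all genes were lower. In MYC TAMs against MYC MTMs 1, Cdh1, was lower, where 3.82% of all genes were, so that count is near the share of all genes. With the mean of these markers as a covariate, 24 mitotic genes in place of 35 passed between MYC TAMs and MTMs, and 3 (Anln, Espl1 and Prc1) in place of 38 passed in TAMs between genotypes, with medians of -1.52 and -1.09. Between MYC TAMs and MTMs, the part of epithelial RNA was not tested beyond that covariate. For TAMs between genotypes, the part of epithelial RNA in the difference cannot be told apart from the genotype with these libraries.

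T and NK cell markers (20 of 21 measured) had means of 2.28, 1.51 and 1.71 in control TAMs, 0.84 to 1.19 in control MTMs, 0.46 to 0.70 in MYC TAMs, against 0.36 and 0.87 in MYC MTMs. Their summed level was 74.7 to 172, 22.2 to 50.9, 40.0 to 79.4 and 13.3 to 36.9 in that order. Of the 20, 12 were lower and 1 (Il7r) higher in MYC than control TAMs, where 12.0% of all genes were lower and 3.89% higher. In MYC TAMs against MYC MTMs 0 were lower and 1 (Il7r) higher, where 3.82% of all genes were lower and 0.664% higher. Cd3e was at the level of 0 reads in all 3 MYC TAM libraries and in MYC MTM mouse 2. The 2 MYC cell types overlapped in this mean, and the part of T cell RNA in either comparison was not tested.

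Monocyte and dendritic cell markers also moved. The counts that follow stand against 12.0% of all genes lower and 3.89% higher in MYC than control TAMs. In MYC TAMs against MYC MTMs, 3.82% of all genes were lower and 0.664% higher. The summed level of 9 monocyte markers was 6.53 to 10.3 in control TAMs, 298 to 641 in MYC TAMs, 247 to 659 in control MTMs and 612 to 970 in MYC MTMs. In MYC over control TAMs 2 of the 9 were higher, Chi3l3 (0.46 to 1.16 in control TAMs, 8.08 to 9.26 in MYC TAMs) and F13a1 (0.92 to 1.24 and 4.49 to 4.94), and 0 were lower. Chi3l3 made up most of the sum in MYC TAMs, so that sum does not show a rise of the 9 as a set. Ccr2, which marks classical monocytes, read 0.05, 0.08 and 0.01 in MYC TAMs, against 3.24 and 3.57 in MYC MTMs, and Ccr2, Ly6c2 and F13a1 were lower in MYC TAMs than MYC MTMs. The summed level of 10 dendritic cell markers was 26.0 to 29.2 in control TAMs, 1.14 to 5.28 in MYC TAMs, 40.5 to 88.9 in control MTMs and 10.8 to 22.2 in MYC MTMs. Of these, 5 were lower in MYC than control TAMs and 2 lower in MYC TAMs than MYC MTMs, with 0 higher. Of 8 neutrophil markers, 1 was lower and 3 higher in MYC than control TAMs, and 0 were lower and 1 higher in MYC TAMs than MYC MTMs. The count of 1 lower between TAMs is near the share of all genes. The summed neutrophil level went the other way from the higher calls, at 75.3 to 147 in MYC TAMs, wholly below the 174 to 294 of control TAMs. It was 108 to 168 in MYC MTMs. The mean log2 levels of the neutrophil markers overlapped between MYC and control TAMs. The part of these cells in the mitotic differences was not tested.

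Other genes of cell division were read from 6 lists of related roles, whose counts stand against 3.82% of all genes lower and 0.664% higher in MYC TAMs than MYC MTMs, and 12.0% lower and 3.89% higher than in control TAMs. No difference between these lists and the 47 genes was tested. Of 51 other spindle and kinetochore genes, 12 were lower in MYC TAMs than MYC MTMs and 19 lower than in control TAMs, with 0 higher, and medians of -0.74 and -0.64. Kif22 (Kid), which pushes chromosome arms from the poles, read 2.50, 2.40 and 2.71 in MYC TAMs, 4.58 and 4.78 in MYC MTMs and 4.23 to 5.19 in control libraries, with differences of -2.14 ± 0.20 and -1.98 ± 0.18 (limma adjusted p = 0.000707 and 0.000126). Spag5 (astrin), a stabiliser of kinetochore attachments, fell by 1.51 and 1.49.

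Of 42 other mitotic regulators, 12 were lower in MYC TAMs than MYC MTMs. Against control TAMs 17 were lower and 2 higher, namely Ensa, an inhibitor of the phosphatase that opposes Cdk1 (1.01 ± 0.12, limma adjusted p = 0.000627), and Gas2l3, a cytoskeletal linker (0.86 ± 0.25, adjusted p = 0.0421). Cdkn3, a phosphatase of Cdk proteins, fell by 2.39 and 2.13, and Ccnf (cyclin F) fell by 1.48 and 1.84. Foxm1, a transcription factor that drives mitotic genes, was low everywhere, at 0.01, 0.11 and 0.04 in MYC TAMs and 0.34 to 0.60 elsewhere, and fell by 0.35 ± 0.08 and 0.32 ± 0.07. Of 17 condensin and cohesin genes, 3 and 5 were lower, with Ncapd2 and Ncaph of the condensin complexes at -1.92 and -2.04 from MYC MTMs. Of 14 subunits of the anaphase-promoting complex, which are known to be expressed through the cell cycle, 1 (Anapc5) and 2 (Anapc5 and Anapc1) were lower, with medians of -0.17 and -0.31, and the latter count is near the share of all genes.

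Of 44 S phase genes, 11 were lower and 1 higher in MYC TAMs than MYC MTMs, and 22 were lower and 1 higher than in control TAMs, with medians of -0.62 and -0.69. Rrm2, the regulated subunit of ribonucleotide reductase, read 1.98, 2.06 and 1.43 in MYC TAMs and 4.10 to 5.17 elsewhere and differed by -2.85 ± 0.28 and -2.71 ± 0.25 (limma adjusted p = 0.000875 and 0.000142). The helicase subunit Mcm2 fell by 1.62 and 1.82. The genes that rose were Rfc2, a clamp loader subunit, in MYC TAMs over MYC MTMs (1.16 ± 0.17, limma adjusted p = 0.00605), and Cdt1, which licenses replication origins in G1, in MYC over control TAMs (1.25 ± 0.31, adjusted p = 0.0228).

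Of 14 cell cycle inhibitors, 0 passed between MYC TAMs and MYC MTMs, and 3 rose in MYC over control TAMs. Cdkn1a (p21), an inhibitor of Cdk complexes, read 6.62, 6.00 and 5.34 in MYC TAMs and 2.68, 3.79 and 3.76 in control TAMs, a rise of 2.58 ± 0.37 (limma adjusted p = 0.00157). It read 5.52 and 5.37 in MYC MTMs and 4.04, 4.35 and 4.59 in control MTMs, so the 2 MYC cell types overlapped. Whether Cdkn1a bears on the mitotic genes was not tested. Gadd45b, a stress-induced regulator, rose by 2.84 ± 0.57 (limma adjusted p = 0.00923) and Cdkn2d (p19) by 1.43 ± 0.31 (adjusted p = 0.0137). No gene of these 6 lists passed between TAMs and MTMs of control mice or between the genotypes in MTMs.

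**Figure D4:**
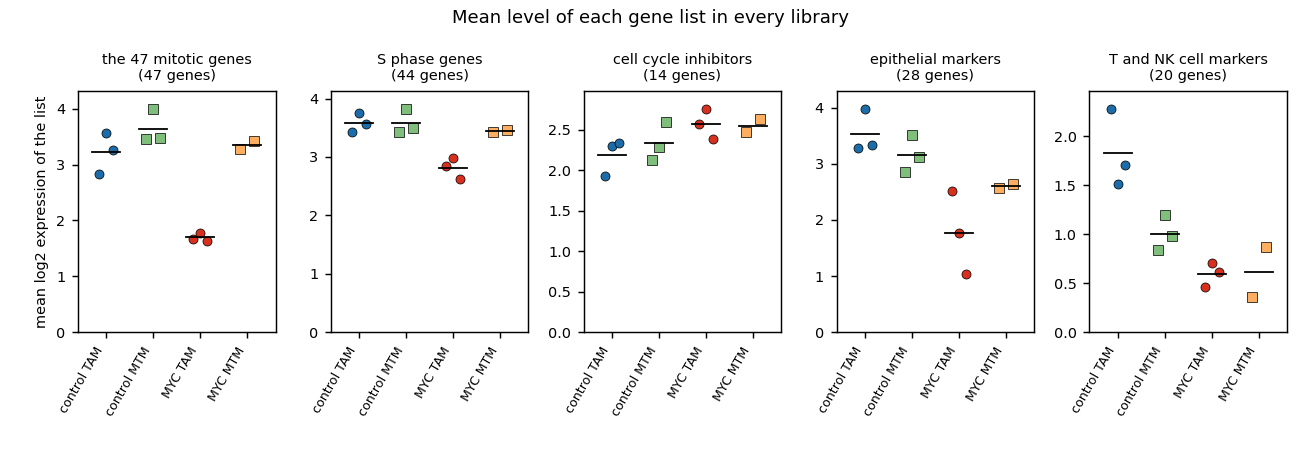
Mean deposited log2 expression (y axis) over the genes of 5 lists in each library (points) with the group mean (lines), for control and MYC TAMs (circles) and MTMs (squares). The mitotic mean is 1.63 to 1.78 in MYC TAMs and 2.83 or more elsewhere, the S phase mean is 2.62 to 2.98 against 3.42 or more, and the epithelial mean is 1.03 to 2.52 in MYC TAMs and 2.57 or more elsewhere.

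Some values could include reads of other sequences. Processed pseudogenes that carry the gene's name are annotated for Ccnb1, Ccnb2 and Kif4, and reads shared with them cannot be separated here. Pseudogenes under other names were not searched for. Exons of 13 of the 47 genes overlap an exon of another gene, all but Top2a with genes on the opposite strand, and 6 of them by more than 10% of their exon bases (Ccna2, Kif20a, Kif4, Prc1, Ube2c and Cdc25c). The library kit keeps strand, but whether the counting used it is not given in the sources used here. The other 34 genes have no such overlap.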

How the data were processed

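RNA was measured in 11 libraries (poly-A selected TruSeq Stranded mRNA, 500 ng of RNA with integrity numbers of 3.3 to 9.6, per the labels' protocols). That range is given for all libraries together, so which of them had low integrity is not known. The part of RNA integrity in the differences was not tested. The authors deposited 1 table of log2 values per gene and library. Per the submitters' processing notes HISAT2 and DESeq2 were used with mm10 (GRCm38.p5), and the formula is not given in the sources used here. The values behaved as log2(x + 1), with x a read number scaled for depth and gene length: 14430 of 14430 low values were whole read numbers within 0.05. Estimated depth was 32.9 to 43.6 M reads in genes per library.

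Here limma 3.58.1 (R 4.3.3, trended variance) was fitted to the deposited log2 values of all 17475 genes and 11 libraries as 4 group means, with 5 two-sided contrasts and Benjamini-Hochberg adjustment over all genes at 0.05. Every adjusted p is from that fit unless a setting is named. The fit was also run on data simulated under its own assumptions, without pairing, which does not test whether those hold for these libraries. The TAM and MTM libraries of a mouse are paired by the labels, which name the mouse: their deviations from the group means correlated at 0.0379 to 0.211 within 5 mice and at -0.189 to 0.0134 between control mice, and a mouse block was an alternative. P-values measure the spread between libraries within the groups of 1 experiment, and those without a block do not use the pairing. The members and gene lists were chosen with earlier results of these data known. Genes given with every library were, in each role, those with the largest difference and the smallest adjusted p in MYC TAM minus MYC MTM, up to 6 of the largest called and 3 of the smallest differences per comparison, and from each pathway list up to 4 with the smallest adjusted p. Cdk1, Cdc25c, Mki67 and Pttg1 were added after their values were seen. Exon lengths and coordinates are from GENCODE (GRCm38) for 16312 genes, promoters from RefSeq. Marker lists for fibroblasts, endothelial cells and B cells gave 1 to 3 genes lower and 0 to 2 higher in MYC than control TAMs. Of all genes, 12.0% were lower and 3.89% higher there. The summed endothelial level was 14.4 to 19.3 in MYC TAMs, 4.31 to 6.63 in control TAMs and at most 7.62 in MTMs. The fibroblast sum was 1.79 to 6.34 in MYC TAMs, 7.38 to 17.3 in control TAMs and at least 7.30 in MTMs. The B cell sum was 79.8 to 105 in MYC TAMs, wholly below the 128 to 142 of control TAMs, and overlapped with the 88.8 to 105 of MYC MTMs. The part of these cells in the mitotic differences was not tested.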

Additional observations from a re-analysis of the deposited data

Results flagged for a closer look

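In 4 mitotic genes the difference between TAMs and MTMs itself differed between MYC and control mice, by limma with Benjamini-Hochberg adjustment over all genes. The difference of differences was -2.44 for Plk1, -2.39 for Ccnb2, -1.82 for Racgap1 and -1.46 for Anln on the log2 scale. The adjusted p over 21 alternative settings ran from 0.00895 to 0.122 for Plk1, which passed in 12 of them, from 0.0188 to 0.187 for Ccnb2 (7), from 0.0242 to 0.241 for Racgap1 (6) and from 0.0256 to 0.245 for Anln (8). Under a fixed block for the mouse, the limma adjusted p was 0.0591 for Plk1, 0.0711 for Ccnb2, 0.0796 for Racgap1 and 0.114 for Anln. Of 28 epithelial markers, 2 were lower in the main difference of differences, where 0.996% of all genes were (smallest limma adjusted p = 0.0148). Cdh1, 1 of these 2, had -2.58 (limma adjusted p = 0.0453). Of 13 macrophage markers, 2 were lower as well (smallest limma adjusted p = 0.00882). The part of epithelial RNA in the 4 mitotic results was not tested beyond the covariate fit, in which 0 mitotic genes passed. The part of the macrophage markers was not tested.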

How the results depend on the processing

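No difference of a mitotic gene that passed changed sign under any alternative run. Some that did not pass did: between TAMs over 21 alternatives, Cenpa ran from -0.88 to 0.47, Cdc25c from -1.51 to 0.55 and Cenph from -1.03 to 0.29, and in MYC mice over 22, Mad2l1 ran from -0.45 to 0.16 and Pttg1 from -0.09 to 2.60. Counts below are of mitotic genes lower at a limma adjusted p below 0.05, then of all genes called. Mouse as a replicate block, which the labels' pairing allows: as a fixed block, 0 and 255 in control mice, 27 and 476 in MYC mice, and 0 and 31 for the difference of differences; as a random block, 1 (Cenpf) in control mice, 38 in MYC mice, and 8 and 325 for the difference of differences. The block changed no other call count by more than 1.5 times. With only the groups compared in the fit, all genes called fell to 196 in control mice, to 90 in MYC mice (7 mitotic genes), to 1547 between TAMs and to 0 between MTMs. With an epithelial covariate there were 3 and 706 between TAMs, 24 in MYC mice, 70 of all genes between MTMs, and 0 and 48 for the difference of differences. Without MYC TAM mice 4 and 6 there were 18 in MYC mice, 21 between TAMs, and 1 and 424 for the difference of differences.

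Without a variance trend 1 gene passed in control mice. The difference of differences gave 11 and 327 when genes with a mean below 1 were left out, 2 mitotic genes after quantile normalisation, and 1 and 129 after median centring. Centring turned the balance of all genes called between TAMs, with 5029 called, 3516 higher and 1513 lower, in place of 680 and 2098, and shifted the median of all genes by 0.187. In MYC mice it called 207 higher and 372 lower in place of 116 and 668, with a shift of 0.155. Quantile normalisation called 1107 higher and 1553 lower between TAMs, and 171 and 400 in MYC mice. With it 28 mitotic genes were lower in MYC mice in place of 35, and 37 between TAMs in place of 38. Leaving out 1 library at a time gave 0 to 1 mitotic genes and 214 to 537 of all genes in control mice, 7 to 36 and 163 to 1031 in MYC mice, 32 to 39 and 1734 to 2996 between TAMs, 0 to 1 and 23 to 128 between MTMs, and 0 to 8 and 21 to 301 for the difference of differences. Where 1 MYC MTM library is left, it is assumed to vary like the other groups. Estimated reads were fewest for Nek2 (22 to 70 in MYC TAMs), Kif4 (27 to 44) and Cenph (40 to 109), and with 2 MYC MTM libraries a difference between MTMs may have been missed.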
